A study of Mus musculus with 672 samples.

Results

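Immediate early genes are genes whose transcription starts within minutes of a stimulus and needs no new protein synthesis. They are switched on by MAP kinase and cAMP signalling acting on factors already bound at their promoters, and their mRNAs are short-lived. Handling of fresh tissue is a known stimulus in many cell types, so these genes are often looked at in dissociated or sorted cells. The set described here holds 10 genes chosen by name, out of 46078 genes in the count table, and all 10 were found by matching Ensembl identifiers to symbols. All 10 passed the filter on low counts. 5 members encode subunits of the dimeric transcription factor AP-1: Fos and Fosb, which pair with Jun proteins, and Jun, Junb and Jund. Egr1 encodes a zinc finger transcription factor and Nr4a1 an orphan nuclear receptor. Ier2 encodes a nuclear protein that is itself rapidly induced. Dusp1 encodes a phosphatase that inactivates MAP kinases, and Zfp36 encodes tristetraprolin, which binds AU-rich mRNAs and speeds their decay; both act as brakes on the response.

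The series is a single-cell RNA-seq study of lymphoid progenitors sorted one cell per well from the bone marrow of femurs and tibiae of 4 mice, aged 7 weeks and of the C57BL6/129Ola strain. Mice 18217 and 18219 were Mbd3 del/del (null), and mice 18218 and 18220 were Mbd3 flox/flox (controls). Mbd3 is a subunit of the NuRD chromatin remodelling complex. No source used here names the tool that deleted the gene or the cells in which it acted, and the controls carry the floxed allele. Each mouse gave 48 LMPPs (lymphoid-primed multipotent progenitors, IL-7Ra-), 84 ALPs (all-lymphoid progenitors, IL-7Ra+ Ly6D-) and 36 BLPs (B cell-biased lymphoid progenitors, IL-7Ra+ Ly6D+). All 3 gates were Lin-, Sca-1+, c-Kit+, Flt3hi and B220-.

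Of 672 sorted cells, 561 passed filters on counts, detected genes, mitochondrial share and spike-in share. 86 of the 111 cells left out were ALPs of mice 18219 and 18220, which kept 42 and 40 of their 84 ALPs. Counts of the kept cells were summed per mouse and gate into 12 libraries of 53741264 to 137497554 gene counts, and levels are given as TMM-scaled CPM, which sets a gene's counts against the scaled total of its library. Mbd3 itself was at 0.189 and 24.7 CPM in del/del LMPPs, against 48.1 and 137 CPM in flox/flox LMPPs. It was at 2.88 and 0.352 CPM in del/del ALPs, against 99.1 and 102 CPM in flox/flox ALPs. In BLPs it was at 0.337 and 0.569 CPM in del/del mice, against 82.4 and 191 CPM in flox/flox mice. The highest del/del value came almost wholly from 1 cell, which held 98.3% of the Mbd3 counts of the LMPPs of mouse 18219. By the edgeR test described below, Il7r, which encodes the receptor that sets the ALP gate apart, rose in ALPs over LMPPs by 6.14 ± 0.25 on the log2 scale (adjusted p = 2.26e-05), and Ly6d, which sets the BLP gate apart, rose in BLPs over ALPs by 5.15 ± 0.48 (adjusted p = 0.0189). Ly6d mRNA also rose in ALPs over LMPPs, by 4.51 ± 0.47 (adjusted p = 0.00366), although both gates lack the protein, and Kit mRNA fell by 1.99 (SE 0.26, adjusted p = 0.0116), although all gates are c-Kit+. The columns of mice 18217 and 18218 alternate in the deposited table, as do those of mice 18219 and 18220, so each pairing holds 1 mouse of each genotype.

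8 of the 10 genes have a promoter in the RefSeq table (GRCm38.p6) that was read, from 250 bases upstream of the start. The window was searched on both strands for TGACGTCA, the cAMP response element, for its part TGACGT, which lies inside every TGACGTCA, for the EGR-type motif GCGNGGGCG, for the AP-1 motif TGANTCA, for TATAAA, and for the CArG box, which serum response factor recognises. TGACGTCA was in the window of Dusp1, against 1.55% of all 32851 promoters in the table. TGACGT was in those of Fos and Dusp1, against 6.47% of all promoters. The CArG box was in that of Zfp36, against 1.47%, and GCGNGGGCG was in those of Fosb, Zfp36 and Nr4a1, against 4.70%. TATAAA was in that of Fos, against 12.4%, and TGANTCA was in none of the 8, against 6.75%. Jun, Junb and Jund had none of these letters in the window, and a match or its absence is a description of the letters only. 3 stretches are shown because their genes, Fos, Dusp1 and Zfp36, are an AP-1 subunit and both brakes of the set, and hold the letters of cAMP or serum response elements. The Fos stretch is chr12:85473640-85473889 on the plus strand, with TGACGT and TATAAA in capitals. For Dusp1 it is chr17:26508523-26508722 on the minus strand, with TGACGT and TGACGTCA in capitals, and for Zfp36 it is chr7:28379267-28379296 on the minus strand, with the CArG box in capitals.
Fos: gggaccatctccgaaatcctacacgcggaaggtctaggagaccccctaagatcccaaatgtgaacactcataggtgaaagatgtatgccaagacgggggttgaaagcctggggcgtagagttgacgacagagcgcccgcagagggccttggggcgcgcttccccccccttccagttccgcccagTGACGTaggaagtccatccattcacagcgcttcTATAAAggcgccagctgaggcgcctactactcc
Dusp1: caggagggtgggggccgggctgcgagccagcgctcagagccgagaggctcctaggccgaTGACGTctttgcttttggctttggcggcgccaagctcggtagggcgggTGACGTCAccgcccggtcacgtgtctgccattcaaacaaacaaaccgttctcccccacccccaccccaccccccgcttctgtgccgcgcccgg
Zfp36: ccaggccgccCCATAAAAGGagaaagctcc

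In the gene annotation used for symbols (GENCODE vM21, GRCm38, the mm10 assembly), Fos (ENSMUSG00000021250) spans positions 85473890 to 85477273 of chromosome 12 on the plus strand and Fosb (ENSMUSG00000003545) positions 19302696 to 19310051 of chromosome 7 on the minus strand. Jun (ENSMUSG00000052684) lies on chromosome 4, Junb (ENSMUSG00000052837), Jund (ENSMUSG00000071076) and Ier2 (ENSMUSG00000053560) on chromosome 8, and Egr1 (ENSMUSG00000038418) on chromosome 18. Dusp1 (ENSMUSG00000024190) lies on chromosome 17, Zfp36 (ENSMUSG00000044786) on chromosome 7 and Nr4a1 (ENSMUSG00000023034) on chromosome 15. 5 members share exon bases with a gene on the opposite strand: Jun with Junos, Junb with Prdx2, Jund with Gm11175, Dusp1 with Ergic1 and Zfp36 with Gm44710. No source used here names the strand setting of the counting. Whether reads on the shared bases were counted for the member, for its partner or for neither cannot be told.

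Divided by exon length, Fos was the highest of the 10, at 267 ± 182 CPM per kilobase (SD over 12 libraries of 4 mice). Ier2 followed at 139 ± 53.1 and Zfp36 at 94.4 ± 42.3 CPM per kilobase. Junb at 64.6 ± 39.5 and Jun at 63.1 ± 36.1 CPM per kilobase did not differ beyond their spread, Junb being the higher in 6 of 12 libraries. Dusp1 stood at 24.8 ± 12.4, Egr1 at 12.5 ± 11.5 and Jund at 9.26 ± 4.31 CPM per kilobase, with Egr1 above Jund in 7 of 12 libraries. Nr4a1 at 4.32 ± 3.42 and Fosb at 3.56 ± 2.86 CPM per kilobase were the lowest, in that order in 6 of 12 libraries. The order was Fos over Ier2 in 10 of 12 libraries, and Ier2 over Zfp36 and Jun over Dusp1 in 12 of 12.

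Among the AP-1 subunits, Fos stood at 435 and 1227 CPM in LMPPs of del/del mice 18217 and 18219, against 144 and 1088 CPM in LMPPs of flox/flox mice 18218 and 18220. In ALPs it was at 487 and 512 CPM in the same del/del mice, against 94.2 and 807 CPM in the same flox/flox mice. In BLPs it was at 485 and 661 CPM in del/del mice, against 189 and 1406 CPM in flox/flox mice. The genotypes overlapped in every gate, and mouse 18218 was the lowest each time. Jun, the main partner of Fos, stood at 73.6 and 215 CPM in del/del LMPPs, against 171 and 339 CPM in flox/flox LMPPs. It was at 126 and 132 CPM in del/del ALPs, against 35.7 and 316 CPM in flox/flox ALPs, and in BLPs at 172 and 305 CPM in del/del mice, against 126 and 404 CPM in flox/flox mice. Its highest value in each gate was that of mouse 18220, and the genotypes overlapped.

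Junb was at 130.0 and 212 CPM in del/del LMPPs, against 104 and 391 CPM in flox/flox LMPPs. It was at 137 and 106 CPM in del/del ALPs, against 48.5 and 125 CPM in flox/flox ALPs, and at 118 and 138 CPM in del/del BLPs, against 59.9 and 213 CPM in flox/flox BLPs. Mouse 18218 again gave the lowest value in each gate. Fosb, the lowest per kilobase, ran between 3.50 and 44.3 CPM in del/del libraries and between 1.86 and 50.5 CPM in flox/flox libraries. Jund, which is expressed in many resting cells and is known to respond less to stimuli than the other Jun genes, differed little between mice in ALPs and BLPs but not in del/del LMPPs. It was at 4.73 and 15.8 CPM in del/del LMPPs, against 9.13 and 11.0 CPM in flox/flox LMPPs, and at 12.7 and 12.5 CPM in del/del ALPs, against 14.0 and 10.0 CPM in flox/flox ALPs. In BLPs it was at 19.7 and 20.4 CPM in del/del mice, against 27.2 and 28.3 CPM in flox/flox mice, all above every LMPP and ALP library.

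Egr1 stood at 86.1 and 190.2 CPM in del/del LMPPs, against 28.1 and 109.9 CPM in flox/flox LMPPs. It was at 51.9 and 40.5 CPM in del/del ALPs, against 17.8 and 51.3 CPM in flox/flox ALPs, and at 20.8 and 21.4 CPM in del/del BLPs, against 4.40 and 48.4 CPM in flox/flox BLPs. Within each mouse the order was LMPP, then ALP, then BLP, from high to low. Nr4a1 was sparse: in BLPs it was at 0.0750 and 8.43 CPM in del/del mice, against 38.5 and 18.2 CPM in flox/flox mice, and the lowest of these values rested on 4 counts in 3 of 36 cells. In LMPPs and ALPs it ran from 5.88 to 36.3 CPM in del/del libraries and from 6.68 to 20.9 CPM in flox/flox libraries.

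Ier2 was at 226 and 356 CPM in del/del LMPPs, against 179 and 291 CPM in flox/flox LMPPs. It was at 187 and 185 CPM in del/del ALPs, against 72.2 and 233 CPM in flox/flox ALPs, and at 148 and 275 CPM in BLPs of del/del mice, against 112 and 275 CPM in BLPs of flox/flox mice. Of the brakes, Zfp36 stood at 299 and 503 CPM in del/del LMPPs, against 189 and 542 CPM in flox/flox LMPPs. Zfp36 reached 286 and 333 CPM in del/del ALPs, against 78.7 and 354 CPM in flox/flox ALPs, and 242 and 411 CPM in del/del BLPs, against 172 and 519.5 CPM in flox/flox BLPs. For both genes mouse 18218 was the lowest in every gate. Dusp1 ran from 41.5 to 147 CPM in del/del libraries and from 16.1 to 133 CPM in flox/flox libraries.

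**Figure D1:**
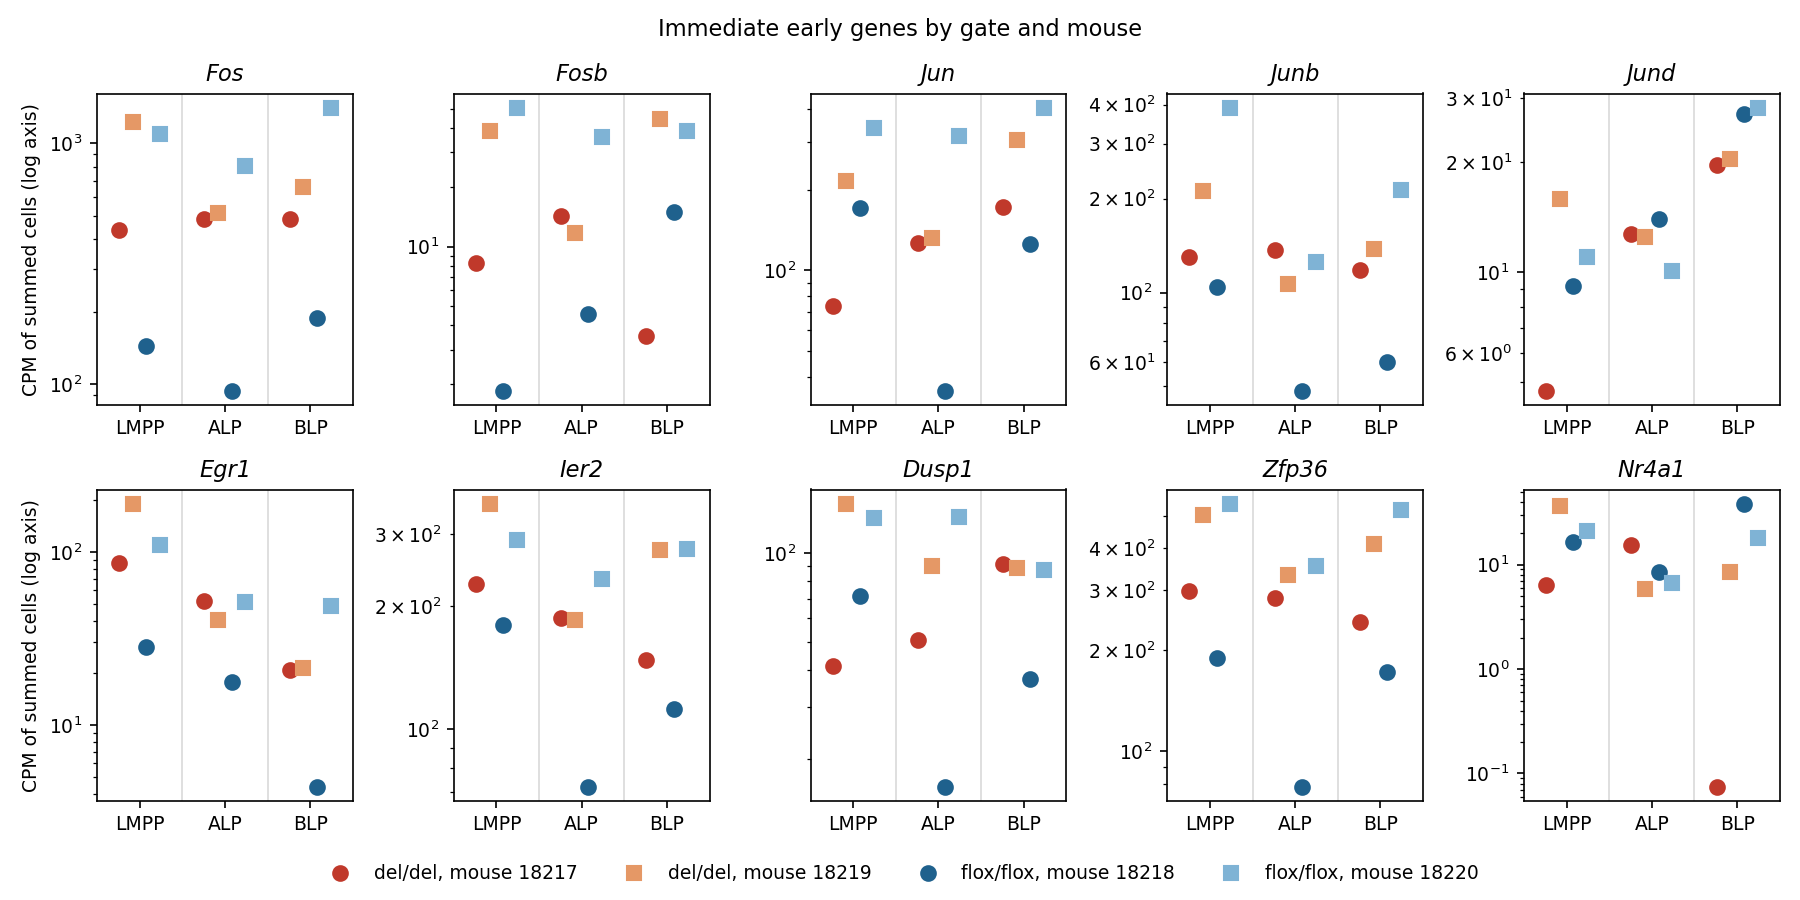
Level of each of the 10 genes in the 12 libraries (vertical axis, TMM-scaled CPM of summed cells, log scale; horizontal axis, gate; 1 point per mouse, del/del left of flox/flox). In Fos the flox/flox mouse 18218 sits lowest in each gate, while Jund in BLPs lies between 19.7 and 28.3 CPM, above all of its LMPP and ALP points.

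The 2 control mice lay far apart in most of these genes. Summed over the 10 genes, del/del LMPPs were at 1310.5 and 2941 CPM, against 915 and 2975 CPM in flox/flox LMPPs. The sums were 1368 and 1428 CPM in del/del ALPs, against 390.4 and 2072 CPM in flox/flox ALPs, and 1300 and 1973 CPM in del/del BLPs, against 781 and 3039 CPM in flox/flox BLPs. Mouse 18218 had the lowest sum in every gate and mouse 18220 the highest. On the log2 scale of CPM + 0.5, the median gap of mouse 18220 over mouse 18218 was 1.25 in LMPPs, 1.92 in ALPs and 1.47 in BLPs, while the median over all 19903 genes tested was 0 in LMPPs, -0.02 in ALPs and 0 in BLPs. 5 of 10 members were past 2-fold higher in mouse 18220 in LMPPs (11.1% of all genes), 8 in ALPs (9.48%) and 8 in BLPs (13.1%). Fos, Fosb, Junb, Egr1 and Zfp36 were past 2-fold in all 3 gates, 5 of 10 members beside 120 of 19903 genes (0.603%). The medians and shares over all genes take in genes of every level and were not matched to the members. They include genes under 0.5 CPM in both mice, such as Egr4, which cannot pass 2-fold on this scale.

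Jund and Nr4a1 stood outside this gap. Jund of mouse 18220 over mouse 18218 was 0.26 in LMPPs, -0.46 in ALPs and 0.05 in BLPs on the log2 scale, and Nr4a1 was 0.33, -0.33 and -1.06 in the same order. Between the del/del mice, 18219 over 18217, the median gap of the members was 1.52 in LMPPs, -0.02 in ALPs and 0.61 in BLPs. 7 members were past 2-fold higher in LMPPs (13.1% of all genes), 0 in ALPs (8.60%) and 2 in BLPs (13.9%), and 0 of 10 were so in all 3 gates (0.523%). With 1 mouse on each side these gaps have no test.

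Of 36 other immediate early genes tested, 3 (8.33%) were past 2-fold higher in mouse 18220 than in mouse 18218 in all 3 gates, beside 0.603% of all genes. They were Klf2, Gadd45b and Ppp1r15a. None of 27 genes of the ERK, SRF and CREB route upstream was, and none of 12 genes of the ATF, BATF, MAF, JDP2 and CREM group. At 0.603% of all genes, the absence of such genes from the lists of 27 and 12 is no result about those lists. Of 14 heat shock genes 1 was, Hspa1a, an inducible chaperone of the HSP70 family, and it was so between the del/del mice as well. Hspa1a was at 1.55 CPM in LMPPs of mouse 18219, against no counts in mouse 18217, and at 16.7 CPM in LMPPs of mouse 18220, against no counts in mouse 18218.

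Other values moved with the mouse. The median spike-in share per kept cell was 9.52% to 14.9% in the 3 libraries of mouse 18220, against 6.80% to 8.86% in those of mouse 18218. At equal depth the median cell of mouse 18220 had reads of 4072, 4149.5 and 3908 genes in LMPPs, ALPs and BLPs, against 4306, 4920 and 4485.5 genes in mouse 18218. Both values differed in the same direction between the del/del mice. The spike-in share was 11.5% to 13.7% in mouse 18219, against 8.01% to 9.92% in mouse 18217. The genes read were 3994, 4318.5 and 4073, against 4510, 4632 and 4493.5. This included del/del ALPs, where the median gap of the members was -0.02. Spike-in library sizes, in place of TMM, lowered the mean gap of the flox/flox mice over the 3 gates to 1.08, against 1.73 with TMM, while the median of all genes moved to -0.48. Relative to all genes the gap of the members therefore remained, but 1 in place of 5 members was past 2-fold in all 3 gates. The part of the spike-in share and of the number of genes read in the gap was not tested. The 8 T cell markers summed to 181, 409 and 332 CPM in LMPPs, ALPs and BLPs of mouse 18220, against 159, 308 and 223 CPM in mouse 18218. Most of each sum was Lck alone, at 171, 335 and 331 CPM in mouse 18220, against 151, 261 and 219 CPM in mouse 18218. The other markers went both ways. In ALPs Cd3g was at 16.6 CPM in mouse 18220, against 0 in mouse 18218, while Tcf7 was at 27.8, against 34.5 CPM. The part of these markers in the gap was not tested. The erythroid and megakaryocyte markers and the macrophage and stroma markers turned direction between gates. The erythroid and megakaryocyte ones summed to 21.3, 1.33 and 1.61 CPM in the gates of mouse 18220, against 3.02, 11.4 and 0.368 CPM in mouse 18218, and the macrophage and stroma markers to 1.13, 0.166 and 0.105 CPM, against 0.189, 4.11 and 0.172 CPM. Fewer cells with a transcript and less of it per cell cannot be told apart in summed libraries, and the counts per cell below separate them in part.

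**Figure D2:**
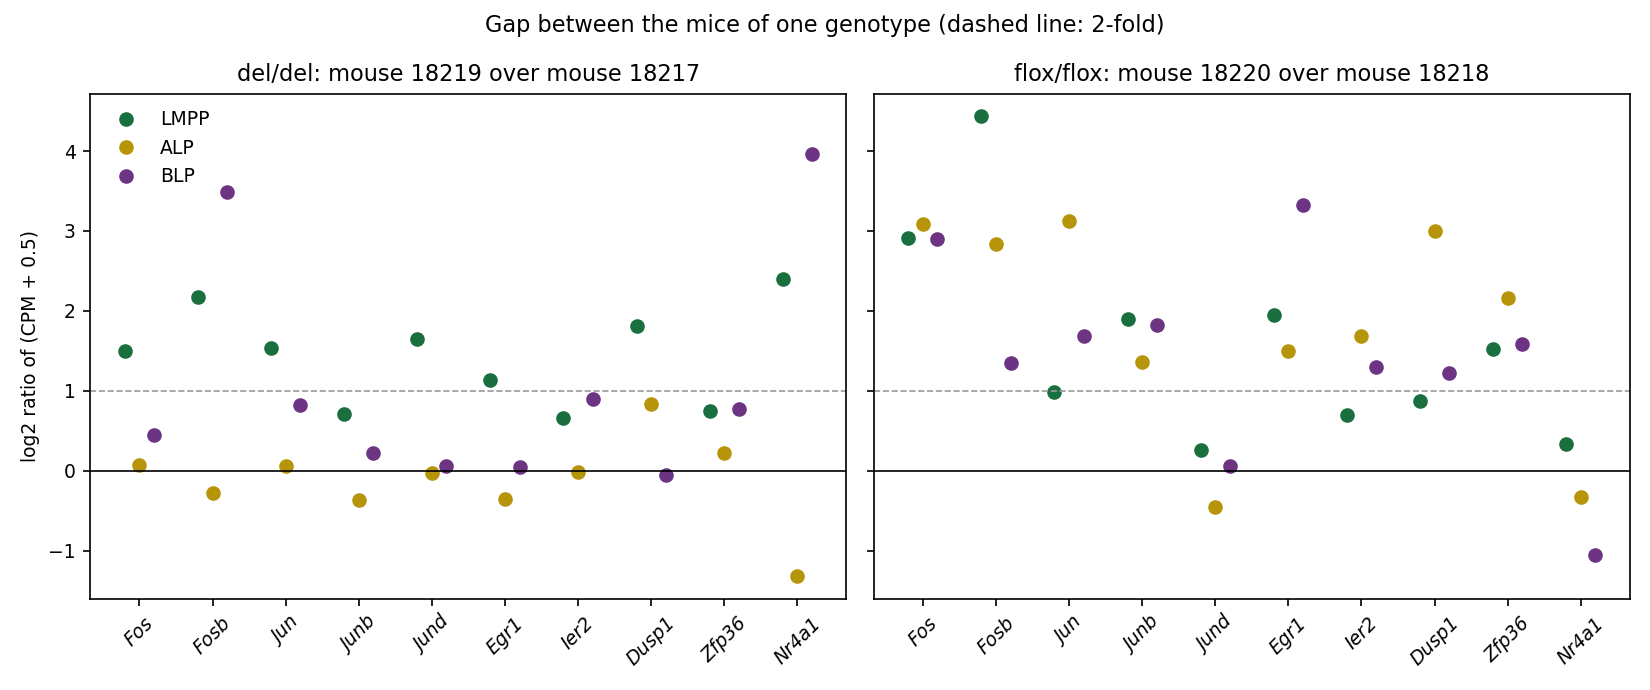
Log2 ratio of CPM + 0.5 between the mice of one genotype for each of the 10 genes (vertical axis; colours mark the gates; solid line, no difference; dashed line, 2-fold). On the right, most points of the flox/flox mice lie above 2-fold while Jund lies between -0.46 and 0.26; on the left, the del/del mice differ mainly in LMPPs, with a median of 1.52.

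Between genotypes, no member was called in any gate. The edgeR quasi-likelihood test with Benjamini-Hochberg adjustment over 19903 genes called 0 of 10 members in LMPPs (0% of all genes), 0 in ALPs (0.00502%) and 0 in BLPs (0.0100%). At an unadjusted p under 0.05 the count of members was also 0 in each gate, beside 1345, 896 and 1757 of all genes in LMPPs, ALPs and BLPs, and DESeq2 and limma-voom called 0 members as well. The log2 fold changes with the smallest p were 1.00 ± 1.03 for Egr1 in LMPPs (SE, adjusted p = 0.913), 0.52 ± 0.78 for Zfp36 in ALPs (adjusted p = 1.00) and -2.73 ± 1.58 for Nr4a1 in BLPs (adjusted p = 0.633). The SE of Fos in LMPPs was 1.22 on the log2 scale around a fold change of 0.43, so a 2-fold change was not detectable with 2 mice per genotype. In BLPs, Dusp1 was higher in both del/del mice than in both flox/flox mice, 1 of 10 members beside 16.3% of all genes, and Jund and Nr4a1 were lower, 2 of 10 beside 17.1%. No member separated the genotypes in LMPPs (16.2% of all genes higher, 17.8% lower) or ALPs (17.1% and 17.0%). With counts summed over the gates of each mouse, 0 of 10 members were called (0% of 21047 genes; 1482 of these were at an unadjusted p under 0.05, and 0 members were).

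The direction between genotypes turned with the pairing of the columns. In ALPs, del/del mouse 18217 was above flox/flox mouse 18218 in 9 of 10 members, with a median log2 ratio of 1.54, while del/del mouse 18219 was below flox/flox mouse 18220 in 9 of 10, with a median of -0.34. In BLPs the first pair had 7 of 10 members higher in the del/del mouse (median 0.47), and the second had 8 of 10 lower (median -0.43). In LMPPs both pairs had 6 of 10 members higher in the del/del mouse, with medians of 0.33 and 0.17. Of all genes, 48.8% were higher in the del/del mouse in both ALP pairs. The share was 47.6% and 46.9% in the first and second BLP pair, and 47% and 46.9% in the LMPP pairs. The 6 of 10 in LMPPs lie near that share and are no result about the members. A single pair has no test. With the pairing as a block over all libraries, edgeR called 0 of 10 members in each gate, and the log2 fold change of del/del over flox/flox was 1.16 for Egr1 in LMPPs (adjusted p = 0.810), 0.88 for Zfp36 in ALPs (adjusted p = 1) and -3.16 for Nr4a1 in BLPs (adjusted p = 0.650).

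Along the gates, averaged over genotypes, the edgeR test called 0 of 10 members in ALPs over LMPPs (1.09% of all genes), 0 in BLPs over ALPs (0.0402%) and 0 in BLPs over LMPPs (4.71%). At an unadjusted p under 0.05, 0, 0 and 2 members stood beside 2627, 1930 and 4206 of all genes. The 2 were Egr1 and Jund. In BLPs over LMPPs the log2 fold change of Egr1 was -2.05 ± 0.75 (SE, edgeR adjusted p = 0.164) and that of Jund 1.21 ± 0.42 (adjusted p = 0.147). Since the gates came from the same animals, the fit with mouse as a replicate block also applies: it gave Egr1 a log2 fold change of -2.24 with an adjusted p of 0.0419 and Jund 1.29 with 0.186, calling 1 of 10 members (3.66% of all genes). DESeq2 called both members (16.8% of all genes), with adjusted p of 0.0198 for Egr1 and 0.0112 for Jund. So did limma on the mean over cells of log2(CPM + 1), with adjusted p of 0.0230 and 0.0154 (9.66% of all genes). Egr1 alone was called with cells thinned to equal counts (11.6% of all genes) and with no filter on low counts (4.61%), and limma-voom called neither (5.26%). Over all 17 fits of this comparison the adjusted p of Egr1 lay between 0.0198 and 0.550 and that of Jund between 0.0112 and 0.455.

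In fold terms, Egr1 in BLPs was at 0.241 and 0.112 times its LMPP level in the del/del mice and at 0.157 and 0.441 times in the flox/flox mice. These BLP levels rested on few cells. The single highest BLP held 37.5% and 54.9% of the Egr1 counts in del/del mice 18217 and 18219. It held 72.1% and 42.4% in flox/flox mice 18218 and 18220. Jund in BLPs was at 4.16 and 1.29 times its LMPP level in the del/del mice and at 2.98 and 2.56 times in the flox/flox mice. Other members kept an order in all 4 mice without passing the test. ALPs were below LMPPs in 4 of 4 mice for Egr1, Ier2 and Zfp36, 3 of 10 members beside 10.7% of all genes, and above them in 4 of 4 mice for no member (10.3%). BLPs were below LMPPs in 4 of 4 mice for Junb, Egr1, Ier2 and Zfp36, 4 of 10 beside 13.9%, and above them for Jund, 1 of 10 beside 13.0%. BLPs were above ALPs for Jun and Jund (2 of 10, 7.59% of all genes) and below them for Egr1 (1 of 10, 9.16%).

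No difference between del/del and flox/flox mice in a gate step was called for any member (edgeR interaction, 0 of 10 in both steps, 0% of all genes; 0 members at an unadjusted p under 0.05). The largest in size was Nr4a1 from ALP to BLP, at -3.22 ± 2.15 on the log2 scale (adjusted p = 0.873). Within a genotype, 0 members were called in ALPs over LMPPs of del/del mice (0.211% of all genes) or of flox/flox mice (0.271%). The smallest p there were those of Egr1 in del/del mice, -1.58 ± 1.04 (adjusted p = 0.730), and of Junb in flox/flox mice, -1.51 ± 0.76 (adjusted p = 0.596). In BLPs over ALPs, 0 were called in del/del mice (0%) or in flox/flox mice (0.00502%), where Jund was at 0.67 ± 0.59 in del/del mice (adjusted p = 0.880) and 1.21 ± 0.59 in flox/flox mice (adjusted p = 0.676).

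Lists of related genes were read by the same edgeR test, against 1.09% of all genes called in ALPs over LMPPs and 4.71% in BLPs over LMPPs. Of 36 other immediate early genes, Ier3, an early response gene linked to survival, fell in ALPs over LMPPs by 2.84 on the log2 scale (SE 0.52, adjusted p = 0.0442) and in BLPs over LMPPs by 3.60 (SE 0.54, adjusted p = 0.00852), 1 of 36 each time. Of 12 genes of the ATF, BATF, MAF, JDP2 and CREM group, Crem, a cAMP-responsive factor, rose in ALPs over LMPPs by 3.06 ± 0.30 (adjusted p = 0.00224). Crem also rose in BLPs over LMPPs, by 2.19 ± 0.29 (adjusted p = 0.00518), while Batf fell by 1.72 (SE 0.20, adjusted p = 0.00318). None of 27 genes of the upstream route was called in either comparison, and 1 of 36 and 0 of 27 lie near the shares over all genes. Over the same comparisons 6 and then 12 of 12 early B cell genes rose, and 3 and then 6 of 10 stem and multipotent genes fell; their part in the values of Egr1 and Jund was not tested.

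**Figure D3:**
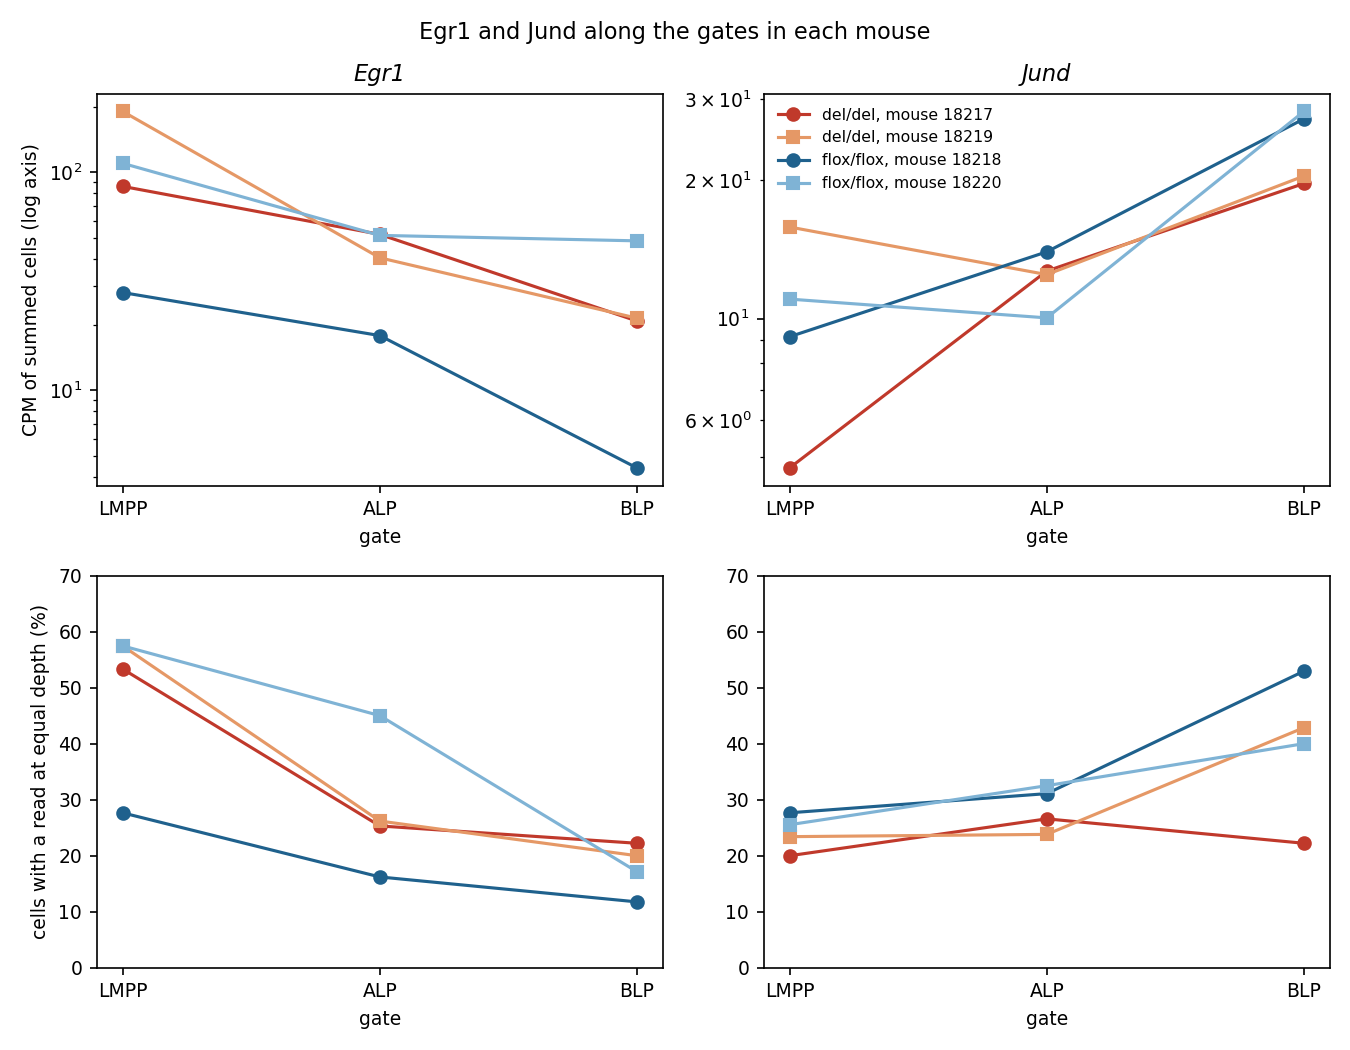
Egr1 and Jund along the gates in each mouse: upper panels, TMM-scaled CPM of summed cells on a log axis; lower panels, share of cells with at least 1 read after each cell was thinned to 50000 gene counts. Egr1 is lower in BLPs than in LMPPs in all 4 mice in both measures, and Jund is higher in BLPs than in LMPPs in all 4.

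Shares of cells with a read were compared after thinning each kept cell to 50000 gene counts. Egr1 was read in 49.0% ± 14.3 of LMPPs, 28.2% ± 12.1 of ALPs and 17.8% ± 4.52 of BLPs (SD, n = 4 mice). BLPs were lower than LMPPs in 4 of 4 mice (exact paired permutation test, two-sided p = 0.13, the smallest that 4 pairs allow; 0.682 after Benjamini-Hochberg adjustment over 60 such tests). Jund was read in 24.1% ± 3.27 of LMPPs, 28.5% ± 4.01 of ALPs and 39.5% ± 12.8 of BLPs, higher in BLPs than in LMPPs in 4 of 4 mice (exact p = 0.13). Fos was read in 62.9% ± 14.5 of LMPPs, 67.7% ± 13.0 of ALPs and 74.8% ± 17.6 of BLPs, higher in BLPs than in LMPPs (exact p = 0.13). Jun was also read in more BLPs than LMPPs, 71.4% against 54.7%, and Dusp1 in fewer, 27.8% against 40.2% (exact p = 0.13 for each). The adjusted p was 0.682 for Jund, Fos, Jun and Dusp1 as well. The share of all genes with such an order at equal depth was not computed. Levels did not keep this order in every mouse. BLPs were at 0.539 times the LMPP level for Fos in mouse 18219, 0.734 times for Jun in mouse 18218 and 2.22 times for Dusp1 in mouse 18217. For genes of other lineages, the T cell gene Cd3e was read in at most 5.00% of the cells of a library and the globin gene Hba-a1 in at most 6.67%.

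At the same depth, the median cell had reads of 3 to 6 of the 10 genes. Cells with reads of 7 or more made up 22.2% and 34.0% of del/del LMPPs, against 12.8% and 46.8% of flox/flox LMPPs. The shares were 19.0% and 23.8% in del/del ALPs, against 2.70% and 40.0% in flox/flox ALPs, and 19.4% and 28.6% in del/del BLPs, against 2.94% and 28.6% in flox/flox BLPs. The exact 95% binomial interval, which covers counting error only, was 24.9% to 56.7% for ALPs of mouse 18220, against 0.329% to 9.42% for ALPs of mouse 18218. In LMPPs it was 32.1% to 61.9% in mouse 18220, against 4.83% to 25.7% in mouse 18218, while in BLPs the intervals overlapped, at 14.6% to 46.3% in mouse 18220, against 0.0744% to 15.3% in mouse 18218. Few cells of mouse 18218 had many of these transcripts, while its median cell still had reads of 3 or 4 of the 10.

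**Figure D4:**
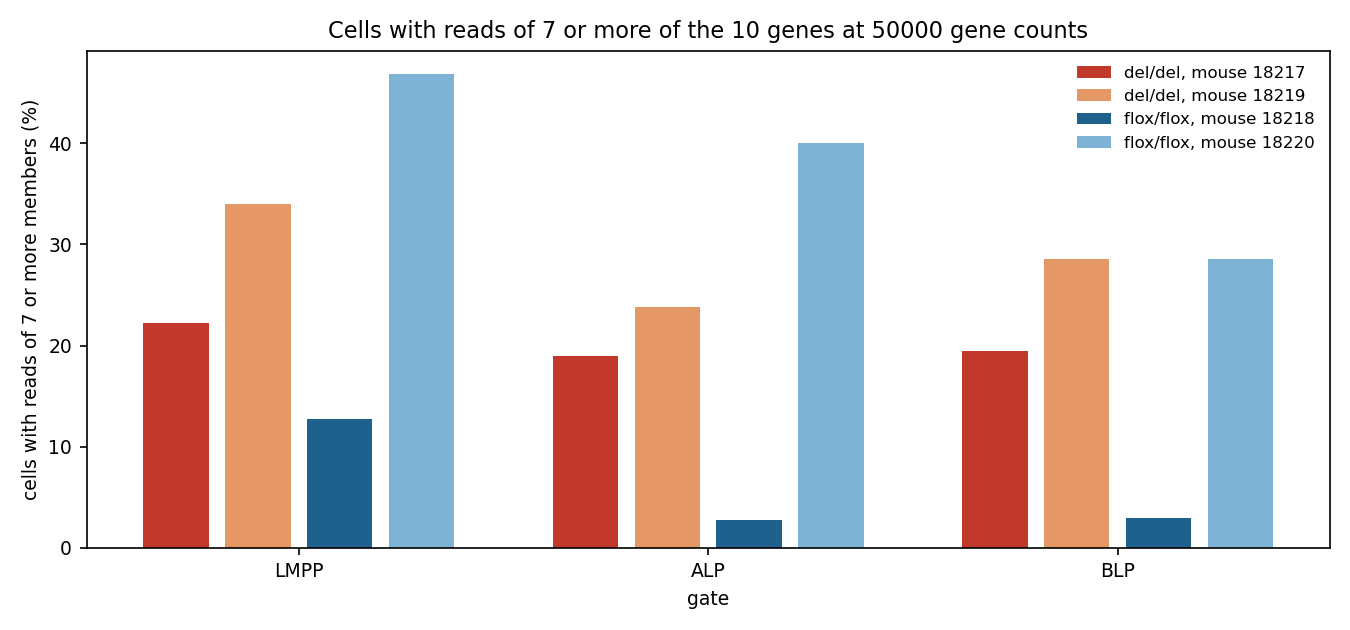
Share of kept cells with reads of 7 or more of the 10 genes after thinning to 50000 gene counts (vertical axis, percent; bars, 1 library each, del/del left of flox/flox within a gate). The bars of flox/flox mouse 18218 are the lowest in each gate, at 12.8%, 2.70% and 2.94%.

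Most of the variation lay between cells of the same mouse and gate. Of the variance of log2(CPM + 1) over the kept cells, between 82.1% (Fos) and 97.3% (Nr4a1) was within libraries. Mouse alone accounted for 16.7% in Fos, 10.5% in Jun and 9.28% in Zfp36, and for 0.271% in Jund. Gate alone accounted for 9.34% in Egr1 and 3.51% in Jund, and genotype alone for at most 2.28%, in Fos. The single highest cell held a median of 11.6% of a library's Ier2 counts, 13.2% of Zfp36 counts and 17.8% of Fos counts, against 45.7% of Nr4a1 counts; over all genes tested the median was 33.3%. For Nr4a1 in LMPPs of mouse 18219, 1 cell held 82.0%. The coefficient of variation between cells had a median of 1.16 for Ier2, 1.21 for Zfp36 and 3.28 for Nr4a1, against 2.90 over all genes. Both medians over all genes take in genes of every level and were not matched to the members. They do not show whether a member varied more or less than genes of its own level.

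Within cells each of the 45 pairs of members was positively correlated on average, though not each pair in every library. The median Spearman correlation of the 45 pairs across the cells of a library, averaged over the 12 libraries, was 0.18. The median over all pairs of 12032 genes read in at least 20% of cells was 0.014, and 0.326% of those pairs lay above 0.18. Those pairs take in genes of every level and were not matched to the members. Cells of a library differ in depth; with cells thinned to equal counts the median was 0.22, and given the number of genes detected it was 0.19. Fos and Zfp36 formed the highest pair at 0.50, followed by Fos with Jun and Fos with Junb at 0.44 each, Junb with Ier2 at 0.41 and Junb with Zfp36 at 0.40. Fos had the highest mean correlation with the other 9 genes, at 0.34. Nr4a1 at 0.14 and Jund at 0.15 had the lowest. Their own pair was the lowest of the 45, at 0.08, and was above 0 in 7 of 12 libraries.

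The correlation differed between libraries. Its median over the pairs was 0.23 and 0.34 in del/del LMPPs, against 0.17 and 0.37 in flox/flox LMPPs, and 0.24 and 0.28 in del/del ALPs, against 0.07 and 0.32 in flox/flox ALPs. In BLPs it was 0.20 and 0.25 in del/del mice, against 0.07 and 0.20 in flox/flox mice. Mouse 18218 was the lowest in each gate. Without that mouse the median was 0.24. The correlation of the members' mean with a cell's counts averaged -0.07 and with its spike-in share 0.09.

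**Figure D5:**
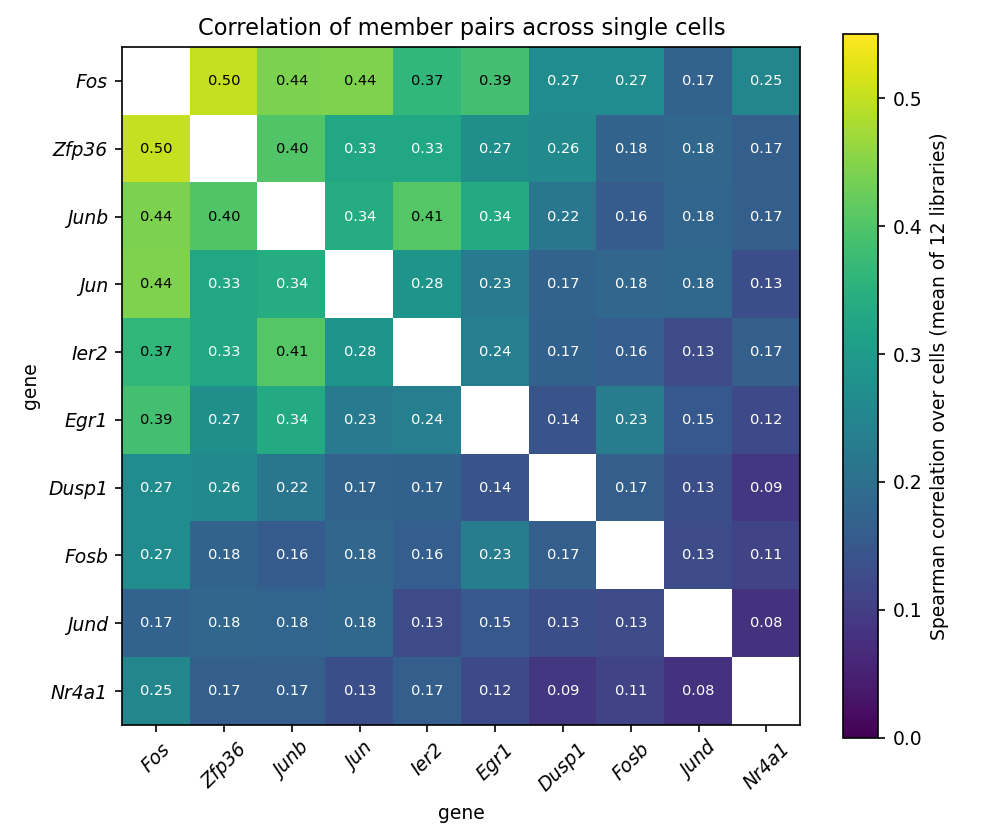
Spearman correlation of each pair of the 10 genes across single cells (both axes, genes; colour and printed value, mean over 12 libraries). Fos, Zfp36, Junb, Jun and Ier2 form the upper left block, reaching 0.50, and Jund with Nr4a1 is lowest at 0.08.

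The genes most like the members were ranked by their mean correlation with the members' mean, over 11994 genes in 12 libraries, where the median gene had 0.00028. Dusp2, a phosphatase of MAP kinases, was first at 0.43 and positive in 12 of 12 libraries. The host transcript Mir142hg followed at 0.41, the antiproliferative gene Btg2 at 0.37 and the nuclear RNA Malat1 at 0.30. Also among the 10 highest were Ppp1r15a at 0.29, Nfkbiz at 0.28, Klf2 at 0.26, the ferritin gene Ftl1 at 0.26 and Zfand5 at 0.25. 5 of the 10 highest (Dusp2, Btg2, Ppp1r15a, Nfkbiz and Klf2) were on the list of other immediate early genes. That list holds 37 genes, not all of them ranked, beside 11994 genes ranked. Its other ranked genes ran from Btg1 at rank 19 to Mafk at rank 5838, with Myc at 1208 and Nfkbia at 1611. The list was chosen with earlier results of these data known. Dusp2 was at 542 and 808 CPM in del/del LMPPs, against 370 and 632 CPM in flox/flox LMPPs, and in ALPs at 854 and 725 CPM in del/del mice, against 398 and 573 CPM in flox/flox mice. Mouse 18218 was again the lowest in both gates.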

How the data were processed

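Per the submitters' processing notes, reads were handled with GSNAP and HTSeq 0.5.3p3 on mm10; the deposited table holds raw counts per gene and cell, without molecular identifiers, so PCR copies are counted. Gene rows held 43.2% of all entries, spike-ins 6.13% and summary rows that name no gene 50.7%; the last stayed out of library sizes and tests. Kept cells had at least 50000 nuclear gene counts, 1000 nuclear genes, at most 20% mitochondrial and 50% spike-in counts. Counts were summed per mouse and gate; 45229 of 46078 identifiers matched a symbol. edgeR 4.0.16 (TMM, filterByExpr, quasi-likelihood, Benjamini-Hochberg) fitted 6 groups in 12 libraries, with 6 residual degrees of freedom and a biological coefficient of variation of 86.9%. DESeq2 1.42.0 and limma 3.58.1 were alternatives. The edgeR fit was also run on simulated counts, drawn without an effect shared by the libraries of a mouse, and its recovery is not given here. Fold changes and SEs are on the log2 scale. The replicate is the mouse. Mouse numbers pair the gates because each mouse gave all 3; deviations of the libraries of a mouse correlated at 0.0341 to 0.0694. Members and lists were chosen with earlier results of these data known. Named were all members, in each comparison those called and those with the smallest p, list genes that were called, the 10 genes most like the members, of which 1 is not reported here, and Mbd3. Hspa1a, Dusp2 levels and the past-2-fold genes were described after their values were seen.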

Additional observations from a re-analysis of the deposited data

How the results depend on the processing

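There were 2 mice per genotype, and the gaps between mice have no test. 0 members were called in 12 of the 13 comparisons under all alternatives run. In BLPs over LMPPs the count of 0 became 2 with DESeq2 and with limma on mean log2(CPM + 1), and 1 with no filter on low counts, with cells thinned to equal counts and with mouse as a replicate block; leaving out a mouse kept it at 0. The replicate block changed no other call. Directions turned for uncalled members. Leaving out 1 mouse moved del/del over flox/flox between -1.21 and 0.69 for Junb in LMPPs, between -0.19 and 1.96 for Zfp36 in ALPs, between -0.042 and 1.32 for Junb in ALPs, between -1.29 and 1.84 for Jun in ALPs and between -0.10 and 2.00 for Egr1 per mouse. The turn came without mouse 18220 for Junb in LMPPs and Jun, and without mouse 18218 for the others. Jun in ALPs also turned with limma-voom (0.64), limma on mean log2(CPM + 1) (0.31), the column pairing as a block (0.16) and the ALPs of mice 18219 and 18220 left out (1.83). Nr4a1 in ALPs over LMPPs of del/del mice lay between -2.62 and 1.26, turning without mouse 18219, and was 0.34 with the replicate block. Junb in BLPs over ALPs of flox/flox mice turned with spike-in library sizes (-0.0037). The Egr1 interaction lay between -1.23 and 0.28, turning without mouse 18219, and was 0.56 with those ALPs left out. The cause was not tested. The flox/flox gap was 1.08 with spike-in sizes, where 1 member was past 2-fold in all gates, against 8 with thinned cells and 8 with the mean over cells of log2(CPM + 1). The gap alternatives, the column pairing block and the ALPs left out were chosen after seeing the data; a gap cannot be had with a mouse left out. The median pair correlation ran from 0.178 to 0.244 when a mouse was left out. Of the other values, 600 for single genes kept their direction and call. A further 237 were counts, shares and medians. Of these, counts were unchanged, and shares and medians moved by less than an SD between mice or gates.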
